A study of Mus musculus with 13 samples.

Results

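The effect of a high-fat diet on gene expression was measured in the epididymal fat (white fat along the epididymis) of wild-type mice, with low-fat chow as the control. The comparison rests on the 6 arrays that the labels name as wild type, 3 for each diet, out of 13 arrays in the series. The animals were male C57Bl/6 mice (CD45.2+) that had eaten chow with 13% of its energy from fat, or a diet with 60%, for 12 weeks and were 18 weeks old. The diets came from different makers, so fat content and the other ingredients cannot be told apart. The other 7 arrays held the same tissue of mice without P2X7, a receptor for extracellular ATP (strain B6.129P2-P2rx7tm1Gab/J after 7 generations of backcrossing), 4 on the high-fat diet and 3 on chow. They are used here for the estimate of spread and for the difference between genotypes. Each array received 100 ng of total RNA. The labels do not state that an array held 1 animal, so the spread behind the p-values is that between samples and may be technical.

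White fat cells keep triglyceride in a lipid droplet, take up fatty acids and glucose under the control of insulin, and release hormones such as leptin and adiponectin. On a long high-fat diet the depot enlarges, and macrophages, the tissue's scavenger cells, gather around its fat cells and take up lipid into their lysosomes. The arrays read whole tissue, in which fewer cells of a type and less RNA per cell cannot be told apart, and this holds for every gene below.

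Values are log2 expression values, so that a difference of 1 is a 2-fold difference. A change is the mean of the 3 high-fat arrays minus the mean of the 3 chow arrays, given with its standard error from limma (±), and a gene rose or fell where its adjusted p was under 0.05 over all 18820 genes. Across genes, the chow arrays correlated with each other at r of 0.995 to 0.996, the high-fat arrays at 0.993 to 0.995, and arrays of different diets at 0.963 to 0.978. The spread was estimated over all 13 arrays, and with the 6 wild-type arrays alone 2667 genes rose and 2584 fell. Fat-cell markers bore out the tissue label, since Adipoq, Plin1, Cidec, Lipe and Fabp4 had chow means of 12.44, 12.58, 12.67, 12.55 and 12.65, in a table whose values ran from 1.70 to 13.86. Epididymis and testis markers were low on both diets, with array means of 3.55 to 3.69 over 7 epididymal genes and 4.09 to 4.28 over 5 testis genes, and none of them passed (limma, 0 at an unadjusted p under 0.05). Replicate 2 on the high-fat diet lay nearest to chow: it was the lowest high-fat array for 2299 of the 3327 genes that rose and the highest for 2125 of the 3409 that fell. Without it 3374 genes rose and 3665 fell.

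Marker levels of other cells moved with the diet as well. The mean over 10 fat-cell markers was 11.96, 12.18 and 12.15 on chow and 11.09, 11.56 and 11.16 on the high-fat diet, and 9 of the 10 genes fell. The mean over 10 macrophage markers was 9.31, 9.03 and 9.34 on chow and 10.45, 10.13 and 10.42 on the high-fat diet, with 8 genes risen and 1 fallen. The mean over 11 liver markers was 8.63, 8.06 and 7.84 on chow and 6.66, 7.76 and 5.88 on the high-fat diet, and 6 genes fell. None of these levels overlapped between the diets (exact two-sided permutation p 0.1, the smallest that 3 against 3 arrays allow). All 7 mesothelial markers, which mark the lining of the depot, fell, as did 6 of 9 endothelial and 6 of 7 smooth muscle and pericyte markers. The mean over 2 red blood cell markers was 6.61, 7.60 and 7.51 on chow and 5.64, 6.47 and 6.15 on the high-fat diet. Mast cell markers rose in 5 of 8 cases and fell in 1, with array means of 6.96, 6.23 and 7.79 on the high-fat diet against 5.82 to 6.33 on chow. Of 7 T cell markers 1 rose, and of 6 B cell and 5 natural killer cell markers 0 passed in limma (1 and 0 at an unadjusted p under 0.05). The mean over the B cell markers was nonetheless lower without overlap (exact permutation p 0.1). It was 6.01, 5.63 and 5.92 on chow and 5.38, 5.61 and 5.13 on the high-fat diet. The liver list held Cyp2e1, which fat expresses as well (12.75, 12.98 and 12.83 on chow and 10.47, 10.85 and 8.03 on the high-fat diet). With the mean of the liver markers as a covariate 2098 genes rose and 1782 fell. Because this level itself differed between the diets, the covariate can take up part of the diet change. A call lost with it, here or below, therefore cannot be assigned to liver transcripts. The part of liver transcripts, or of mast or mesothelial cells, in any single change was not tested further.

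**Figure D1:**
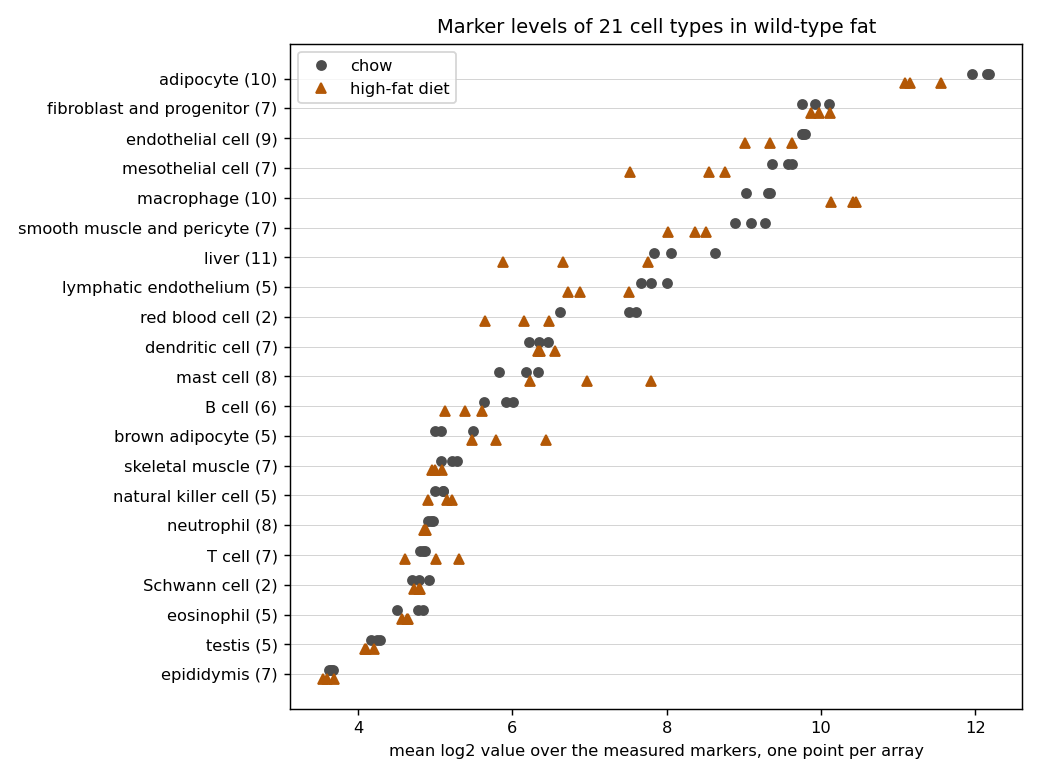
Mean log2 value over the measured markers of each of 21 cell types (number of markers in brackets), with 1 point for each wild-type array on chow (circles) or the high-fat diet (triangles). Fat-cell, mesothelial and pericyte levels were lower and macrophage levels higher on the high-fat diet, and the liver level varied most within the high-fat group, from 5.88 to 7.76; levels of different cell types rest on different genes and are not comparable with each other.

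Over all genes 3327 rose (17.7% of those tested) and 3409 fell (18.1%), and the median change was -0.027. These shares are the background against which the counts of each gene group below are to be read. Large changes leaned upward: 911 genes rose and 491 fell at least 2-fold, 208 rose and 48 fell at least 4-fold, and 58 rose and 5 fell at least 8-fold. The median value of the genes that rose went from 7.55 to 8.41, and that of the genes that fell from 8.38 to 7.72. In 3207 of the risen and 3185 of the fallen genes the 3 values of one diet did not overlap with those of the other. Genes changed at least 2-fold from among those of high mean value included products of fat cells and of macrophages. The hormone resistin (Retn) read 12.97, 13.10 and 13.07 on chow and 11.60, 12.11 and 11.74 on the high-fat diet and fell by 1.23 ± 0.12, with the amine oxidase Aoc3 (-1.06 ± 0.11) and the cysteine dioxygenase Cdo1 (-1.03 ± 0.12). The lysosomal membrane protein Laptm5 and the galactose-binding lectin Lgals3 (galectin-3) rose by 1.30 ± 0.12 and 2.03 ± 0.15, and the adhesion and migration genes Vat1 and Fblim1 by 1.26 ± 0.10 and 1.99 ± 0.09. Predicted genes aside, the smallest p belonged to Spc25, a part of the kinetochore that ties chromosomes to the spindle. It read 4.55, 4.46 and 4.48 on chow and 7.10, 7.44 and 7.24 on the high-fat diet, a rise of 2.77 ± 0.10. Next were Eepd1 (-2.17 ± 0.09), a nuclease-related protein that fell, and Slc15a3, a peptide and histidine transporter of the lysosome, which rose by 3.31 ± 0.14.

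**Figure D2:**
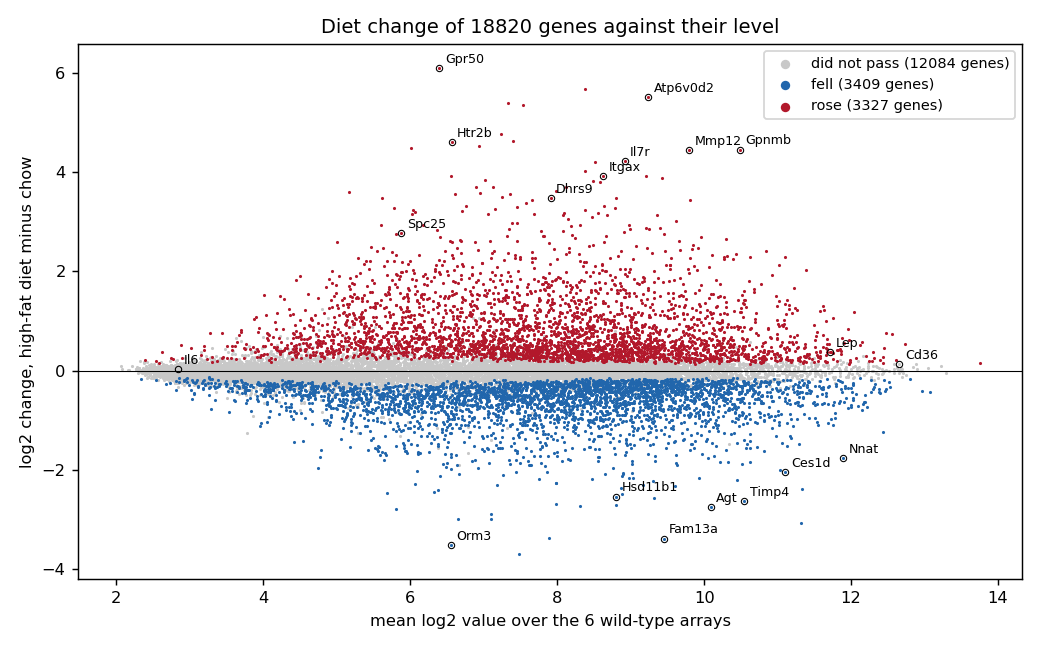
Change of each of 18820 genes with the high-fat diet (y axis, log2) against its mean log2 value over the 6 wild-type arrays (x axis); red genes rose, blue genes fell and grey genes did not pass. The changes beyond 4 on the log2 scale were all rises, and Il6, at 2.62 to 3.04 on the 6 arrays, lay near the floor of the values.

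Hormones and other secreted products of fat cells did not move as a block. Of 22 measured, 5 rose and 7 fell, with a median change of 0.00. Adiponectin (Adipoq), which raises insulin sensitivity, read 12.24, 12.59 and 12.50 on chow and 11.64, 11.96 and 11.61 on the high-fat diet and fell by 0.71 ± 0.10 (adjusted p 9.44e-05). Leptin (Lep), the satiety hormone whose blood level follows fat mass, read 11.64, 11.47 and 11.49 on chow and 11.82, 12.10 and 11.80 on the high-fat diet and rose by 0.37 ± 0.11 (adjusted p 0.0198). No leptin value on the high-fat diet was as low as any on chow, but the rise did not pass without chow replicate 2 or 3 or without high-fat replicate 2, and ranged from 0.28 to 0.43 over the arrays left out. Nrg4, a growth factor that brown and white fat release towards the liver, fell by 2.16 ± 0.20, and Rbp4, the carrier of retinol, by 1.09 ± 0.18. The angiogenic factor Vegfa fell by 1.42 ± 0.20 from 10.22, 10.83 and 10.72 on chow to 8.90, 9.59 and 9.01. Neuropeptide Y (Npy) went the other way, from 5.14, 5.50 and 5.15 on chow to 8.61, 7.38 and 7.59, a rise of 2.60 ± 0.27, as did meteorin-like (Metrnl, 1.57 ± 0.12) and the collagen-associated Cthrc1 (0.89 ± 0.20). Neuronatin (Nnat), a small membrane protein, read 12.64, 12.72 and 12.97 on chow and 10.65, 11.46 and 10.93 on the high-fat diet and fell by 1.76 ± 0.15. Apelin (Apln) stood at -0.20 ± 0.14 (adjusted p 0.292). Without chow replicate 3 the list had 3 risen genes. With the liver markers as a covariate Cthrc1 lost its call.

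Genes of insulin signalling and glycogen mostly fell, 17 of 29, against 4 that rose, with a median change of -0.40. The insulin receptor Insr read 10.02, 10.21 and 10.32 on chow and 9.14, 9.42 and 9.27 on the high-fat diet and fell by 0.90 ± 0.12. Its substrate Irs2 fell by 1.28 ± 0.14, the kinase subunit Pik3r1 by 1.06 ± 0.12, the kinase Akt2 by 0.63 ± 0.14 and the phosphodiesterase Pde3b, through which insulin restrains lipolysis, by 1.42 ± 0.15. Hexokinase 2 (Hk2), which traps glucose in the cell, fell by 1.30 ± 0.14, and the glucose transporter Slc2a3 (GLUT3) by 1.55 ± 0.13. The transporter Slc2a4 (GLUT4), counted with the fat-cell markers and not with this list, fell by more, from a mean of 10.32 to 8.01 (-2.31). The muscle and fat form of glycogen synthase, Gys1, read 10.33, 10.39 and 10.23 on chow and 8.66, 9.25 and 8.78 on the high-fat diet, a fall of 1.42 ± 0.13 (adjusted p 2.43e-06). The form best known from liver, Gys2, read 7.17, 8.56 and 7.28 on chow and 8.72, 9.54 and 9.09 on the high-fat diet and rose by 1.45 ± 0.33 (adjusted p 0.00386). The values of the synthases did not overlap between the diets in either case, and they moved in opposite directions. Also higher were Ptpn1, the phosphatase that turns off the insulin receptor (0.89 ± 0.11), and Slc2a1 (GLUT1, 0.80 ± 0.15). Adjusted for the liver markers, 2 genes of the list rose, and Akt2 and Slc2a1 lost their calls.

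Fat storage and release were read through 3 lists. For triglyceride synthesis 1 gene rose and 8 fell of 18 (median -0.16). Acyltransferases that start the chain fell, Gpat3 by 1.70 ± 0.22, Gpam by 1.12 ± 0.18 and Gpat4 by 0.82 ± 0.07, together with the phosphatidate phosphatase Lpin1 (-0.89 ± 0.15), while its relative Lpin2 rose by 0.73 ± 0.11. Dgat2, which adds the last acyl chain, read 12.35, 12.56 and 12.39 on chow and 12.17, 12.56 and 12.15 on the high-fat diet and did not pass (-0.14 ± 0.10, adjusted p 0.318), although it did so without high-fat replicate 2, over a range from -0.27 to -0.07. For lipolysis and the droplet coat 2 genes rose and 15 fell of 28 (median -0.45). The lipases that break triglyceride and diglyceride fell, Pnpla2 by 0.74 ± 0.11 and Lipe by 0.79 ± 0.11, as did the coat proteins Plin1 (-0.73 ± 0.09), Plin4 (-1.10 ± 0.13) and Cidec (-0.40 ± 0.10). The carboxylesterases Ces1d and Ces1f, which also act on stored lipid and belong to a family of close copies, fell by 2.04 ± 0.19 and 2.70 ± 0.33. The lactate receptor Hcar1 fell by 1.44 ± 0.31 and the fatty acid receptor Ffar4 by 1.37 ± 0.16. Hilpda, an inhibitor of the lipase Pnpla2 found in macrophages as well, read 6.29, 6.29 and 6.55 on chow and 7.93, 7.47 and 7.22 on the high-fat diet and rose by 1.16 ± 0.17, and the coat protein Plin3 rose by 0.41 ± 0.08. Cidea stood at -0.34 ± 0.30 (adjusted p 0.416). Under the liver covariate, 5 genes of triglyceride synthesis and 7 of lipolysis fell, and Cidec and Hcar1 lost their calls.

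Fatty acid uptake was mixed, with 5 risen and 7 fallen of 20 (median -0.03). Lipoprotein lipase (Lpl), which frees fatty acids from circulating particles, and the fatty acid receptor Cd36 did not pass, at -0.06 ± 0.06 and 0.12 ± 0.09. Gpihbp1, which holds the lipase on the capillary wall, fell by 0.91 ± 0.18. The fatty acid binding protein of fat cells, Fabp4, read 12.55, 12.77 and 12.64 on chow and 12.20, 12.36 and 12.31 on the high-fat diet and fell by 0.36 ± 0.06. That of macrophages and skin, Fabp5, read 9.96, 10.48 and 9.94 on chow and 11.23, 11.40 and 11.22 on the high-fat diet and rose by 1.16 ± 0.15. The caveolar proteins Cav1 (-0.37 ± 0.06) and Cav2 (-0.72 ± 0.10) fell. After adjustment for liver markers, 3 genes rose and 4 fell, and Gpihbp1 lost its call.

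Among transcription factors and cofactors of the fat cell 18 of 30 fell and 1 rose (median -0.45). Pparg, the master regulator of the fat cell, read 11.80, 11.92 and 11.83 on chow and 10.93, 11.31 and 11.23 on the high-fat diet and fell by 0.69 ± 0.09. Its partner Cebpa fell by 1.01 ± 0.12, the lipogenic factor Srebf1 by 0.88 ± 0.15, and the early B-cell factors Ebf1 and Ebf2, which maintain fat-cell identity, by 1.03 ± 0.07 and 1.03 ± 0.11. The largest fall of the list was that of Klf15, a factor induced by glucocorticoids and fasting, which read 8.26, 8.63 and 8.36 on chow and 6.25, 6.94 and 6.49 on the high-fat diet (-1.86 ± 0.18, adjusted p 3.56e-06). Bmp4, a growth factor counted with this list that commits precursors to the fat lineage, fell by 1.37 ± 0.13. The gene that rose was Cebpb (0.44 ± 0.08), an early factor of differentiation and of inflammation. Of 34 nuclear hormone receptors 2 rose and 13 fell (median -0.11), with the glucocorticoid receptor Nr3c1 down by 0.57 ± 0.07, the oestrogen receptor Esr1 by 0.98 ± 0.17, the thyroid hormone receptor Thrb by 1.03 ± 0.20, Rxra, the shared partner of many of them, by 0.60 ± 0.10, and the retinoic acid receptor Rarg by 0.78 ± 0.07. The liver X receptor Nr1h3 stood at -0.07 ± 0.09 (adjusted p 0.582). The receptors that rose, Esrrg (0.51 ± 0.17) and Vdr (0.33 ± 0.11), each lost the call once any 1 of 3 arrays was left out, namely chow replicates 2 and 3 in both, high-fat replicate 2 in Esrrg (range 0.25 to 0.72) and high-fat replicate 1 in Vdr (range 0.22 to 0.41). Both calls were also lost with wild-type arrays alone. With the liver markers as a covariate 8 receptors fell, and Thrb and Vdr lost their calls.

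Clock genes had the lowest median of all 37 lists, -0.74, with 3 risen and 11 fallen of 16. The clock is a loop in which Arntl with Clock or Npas2 drives the Per and Cry repressors and a set of output factors, and its genes cycle over the day. Of the drivers, Clock did not pass (0.08 ± 0.07, adjusted p 0.461). Npas2 read 5.86, 5.89 and 5.87 on chow and 8.16, 7.32 and 7.95 on the high-fat diet, a rise of 1.94 ± 0.18 (adjusted p 2.36e-06), and Arntl read 5.93, 5.90 and 5.48 on chow and 7.74, 7.27 and 7.11 on the high-fat diet, a rise of 1.60 ± 0.16 (adjusted p 4.62e-06). Among repressors and outputs, Per3 read 9.29, 9.27 and 9.50 on chow and 7.43, 7.77 and 8.14 on the high-fat diet and Ciart, a further repressor, 8.12, 8.17 and 8.57 on chow and 6.53, 6.39 and 6.96 on the high-fat diet, falls of 1.57 ± 0.14 and 1.66 ± 0.19. Per2 fell by 1.24 ± 0.18, Cry2 by 1.03 ± 0.11, Nr1d2 (REV-ERB beta) by 0.60 ± 0.07, and the output factors Hlf and Tef by 1.36 ± 0.15 and 1.09 ± 0.12. Nfil3, which opposes these outputs, rose by 0.44 ± 0.12, a call lost without chow replicate 3 (range 0.30 to 0.53). The values of Npas2, Arntl, Per3 and Ciart did not overlap between the diets, as the plot of values by array shows. The time of day at which tissue was taken is not given in the labels, and its part was not tested.

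In retinoid and steroid handling 2 genes rose and 7 fell of 20 (median -0.21). Hsd11b1, which regenerates active glucocorticoid inside fat cells, read 10.08, 10.54 and 9.62 on chow and 7.00, 7.78 and 7.82 on the high-fat diet and fell by 2.54 ± 0.22, a 5.84-fold difference. Dhrs9, a retinol and steroid dehydrogenase, moved the opposite way, at 6.24, 6.11 and 6.16 on chow and 10.03, 9.32 and 9.60 on the high-fat diet, and rose by 3.48 ± 0.16 (11.1-fold). Aldh1a1, which makes retinoic acid, fell by 1.08 ± 0.14, the sulphotransferase Sult1a1 by 1.03 ± 0.16 and the retinol dehydrogenase Rdh10 by 0.47 ± 0.09. The retinol receptor Stra6 did not pass (-0.35 ± 0.16, adjusted p 0.107), though it did without chow replicate 2 or high-fat replicate 2 (range -0.48 to -0.19). Adjusted for the liver markers, 4 genes of the list fell.

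**Figure D3:**
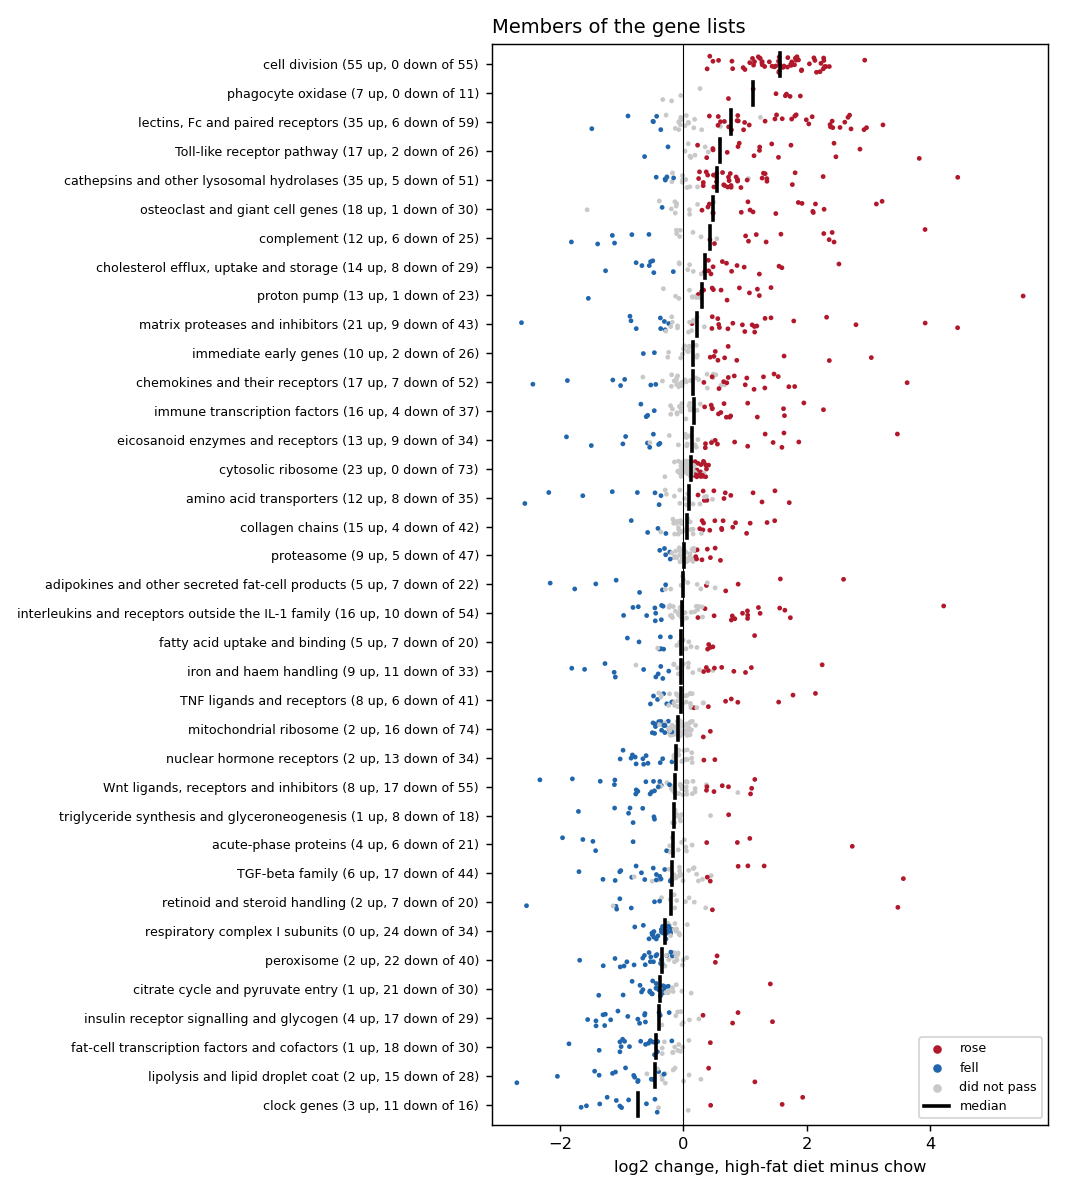
Change of every measured member of the 37 gene lists with the high-fat diet (x axis, log2), with lists ordered by their median (black bar) and the numbers that rose and fell in brackets. Cell division genes lay farthest to the right, with 55 of 55 risen, and clock genes farthest to the left by median.

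In the citrate cycle and pyruvate entry 21 of 30 fell and 1 rose (median -0.39). Citrate synthase (Cs) stood at -0.29 ± 0.08, a fall that did not pass without chow replicate 2 or high-fat replicate 1 (range -0.37 to -0.22). The isocitrate dehydrogenase subunits Idh3g and Idh3b fell by 0.51 ± 0.07 and 0.45 ± 0.06, fumarase (Fh1) by 0.66 ± 0.10 and the succinyl-CoA ligase subunit Suclg2 by 0.98 ± 0.10. The kinases that switch off pyruvate dehydrogenase moved apart. Pdk2 read 10.28, 10.50 and 10.45 on chow and 8.87, 9.29 and 8.95 on the high-fat diet and fell by 1.37 ± 0.11, whereas Pdk4, the form induced by fasting and fatty acids, read 8.37, 9.03 and 9.06 on chow and 10.14, 10.73 and 9.82 on the high-fat diet and rose by 1.41 ± 0.22. Of 34 subunits of respiratory complex I 24 fell and 0 rose (median -0.30), from Ndufb8 (-0.79 ± 0.08) and Ndufv1 (-0.65 ± 0.10) to Ndufs7 (-0.34 ± 0.06). By limma's unadjusted p under 0.05, 25 were lower and 0 higher. In the mitochondrial ribosome 2 genes rose and 16 fell of 74 (median -0.09), or 28 fell with arrays centred on their medians. The fallen share (21.6%) was near that over all genes (18.1%), but the risen share (2.7%) was well under it (17.7%). By limma's unadjusted p under 0.05, 28 were lower and 2 higher. Mrps30 (-0.50 ± 0.09) and Mrpl49 (-0.49 ± 0.09) were among the falls. In the peroxisome, which shortens very long and branched fatty acids, 22 of 40 fell and 2 rose (median -0.34). Pxmp2, a channel of its membrane, read 7.17, 7.55 and 7.48 on chow and 5.60, 5.78 and 5.76 on the high-fat diet and fell by 1.68 ± 0.12, and phytanoyl-CoA hydroxylase (Phyh) fell by 1.30 ± 0.08. The transporter Abcd2 fell by 0.96 ± 0.12, the biogenesis factor Pex3 by 0.92 ± 0.09 and catalase (Cat) by 0.27 ± 0.06. Acox3 (0.55 ± 0.08) and Agps (0.52 ± 0.09), which starts ether lipid synthesis, rose. Under the liver covariate, 13 genes of the citrate cycle, 6 of complex I, 7 of the mitochondrial ribosome and 9 of the peroxisome fell, and Cs, Ndufs7 and Cat lost their calls. Without chow replicate 2, 15 complex I and 10 mitochondrial ribosome genes fell, without high-fat replicate 3, 14 peroxisome genes fell, and with wild-type arrays alone 13, 10 and 14 of these lists fell.

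Cytosolic ribosomal protein genes had 23 of 73 risen and 0 fallen (33 and 1 at limma's unadjusted p under 0.05), with a median of 0.13 and a largest rise of 0.41. Rpl23 rose by 0.28 ± 0.05, Rps3 by 0.34 ± 0.07 and Rpl13a by 0.28 ± 0.06. These genes have many near-identical copies in the genome, and the list's pattern also took in the relatives Rpl7l1, Rps27l and Rpl32l. The count depended on scaling, with 15 risen and 2 fallen on median-centred arrays and 2 fallen after a second quantile normalization. It was 14 without high-fat replicate 1 or with wild-type arrays alone, 15 without high-fat replicate 3 and 5 with the liver markers as a covariate. Proteasome genes had 9 risen and 5 fallen of 47 (median 0.02), or 5 risen and 8 fallen on median-centred arrays, and the subunits of the immunoproteasome, Psmb8 (0.60 ± 0.14) and Psmb10 (0.44 ± 0.10), were among the risen. Without chow replicate 3 or high-fat replicate 3 the proteasome list had 5 risen genes, and without chow replicate 2 or high-fat replicate 1 it had 3 fallen.

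Turning to immune genes, complement had 12 risen and 6 fallen of 25 (median 0.43). The receptors for the fragments C3a and C5a rose. C3ar1 read 9.62, 9.41 and 9.87 on chow and 12.18, 11.86 and 12.10 on the high-fat diet and rose by 2.41 ± 0.13 (adjusted p 3.81e-08), and C5ar1 and C5ar2 rose by 2.36 ± 0.14 and 2.28 ± 0.13. The recognition chains C1qa and C1qb, made by macrophages, rose by 1.18 ± 0.14 and 1.06 ± 0.08, and the integrin chains of complement receptors, Itgb2 and Itgax (CD11c), by 2.44 ± 0.22 and 3.92 ± 0.35. C2, the protease of the classical and lectin pathways, read 10.13, 10.22 and 10.37 on chow and 8.38, 8.56 and 8.33 on the high-fat diet and fell by 1.82 ± 0.09 (adjusted p 3.42e-08). The lectin-pathway protease Masp1 fell by 1.39 ± 0.22 and the inhibitor clusterin (Clu) by 1.15 ± 0.12. In the phagocyte oxidase, which makes superoxide, 7 genes rose and 0 fell of 11 (8 and 0 at limma's unadjusted p under 0.05), with a median of 1.13; without chow replicate 1, 1 gene fell. Its membrane subunits Cybb and Cyba rose by 1.65 ± 0.15 and 1.67 ± 0.14, the cytosolic Ncf4 by 1.90 ± 0.17 and the GTPase Rac2 by 1.5 ± 0.15. Nox4, a relative found outside phagocytes, rose by 1.13 ± 0.11.

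Toll-like receptors sense microbial and endogenous molecules, and of 26 genes of the pathway 17 rose and 2 fell (median 0.60). The largest rises were those of receptors of the endosome. Tlr13, which binds bacterial ribosomal RNA, read 6.84, 6.30 and 6.60 on chow and 10.71, 9.94 and 10.57 on the high-fat diet and rose by 3.83 ± 0.21, and Tlr8 read 7.60, 7.34 and 7.75 on chow and 10.53, 10.25 and 10.50 on the high-fat diet and rose by 2.86 ± 0.16. Unc93b1, the chaperone that brings such receptors to the endosome, rose by 1.15 ± 0.10. At the cell surface Tlr1 rose by 2.44 ± 0.18, Tlr6 by 1.54 ± 0.15, Tlr2 by 0.71 ± 0.12 and the co-receptor Cd14 by 1.23 ± 0.15. Tlr4, the endotoxin receptor, read 7.72, 8.22 and 8.36 on chow and 8.63, 8.30 and 8.43 on the high-fat diet and did not pass (0.35 ± 0.14, adjusted p 0.0636), although it did without chow replicate 3 or high-fat replicate 2 (range 0.17 to 0.48). Cd180, a relative of Tlr4 on B cells and myeloid cells, rose by 2.47 ± 0.20. The flagellin receptor Tlr5 fell by 0.63 ± 0.17. Tlr5 lost its call with the liver markers as a covariate and with wild-type arrays alone, and 1 gene of the list fell without chow replicate 1 or 3 or high-fat replicate 1 or 2.

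Chemokines and their receptors had 17 risen and 7 fallen of 52 (median 0.16). Ccl2, which draws monocytes, read 8.14, 8.01 and 7.88 on chow and 10.29, 9.65 and 9.23 on the high-fat diet and rose by 1.71 ± 0.21. Its receptor Ccr2 stood at -0.03 ± 0.22 (adjusted p 0.941). Cxcl16, a scavenger ligand of macrophages, rose by 1.54 ± 0.17, Ccl9 by 1.30 ± 0.12, Cxcr4 by 1.00 ± 0.15 and the fractalkine receptor Cx3cr1 by 0.82 ± 0.11. Ccl8 read 7.77, 5.40 and 5.51 on chow and 8.12, 7.44 and 8.53 on the high-fat diet, and its rise of 1.80 ± 0.48 rested on arrays that overlapped, since chow replicate 1 lay above high-fat replicate 2. Other ligands were lower. Ccl17, a chemokine of dendritic cells and of alternatively activated macrophages, read 7.79, 7.48 and 7.37 on chow and 5.15, 4.92 and 5.25 on the high-fat diet and fell by 2.44 ± 0.19. Ccl24, an eosinophil attractant of similar source, fell by 1.88 ± 0.22, and Cxcl11, induced by interferon, by 1.15 ± 0.10. After adjustment for liver markers, 11 genes of the list rose and 4 fell, and Ccl8 lost its call, as it did with wild-type arrays alone.

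In the TNF family 8 genes rose and 6 fell of 41 (median -0.04). The receptors Tnfrsf1b and Tnfrsf11a (RANK) rose by 1.78 ± 0.12 and 2.14 ± 0.12, and RANK read 6.68, 6.83 and 6.97 on chow and 9.19, 8.67 and 9.05 on the high-fat diet. The ligand of RANK, Tnfsf11, read between 4.73 and 5.26 on the 6 arrays and its fall of 0.32 ± 0.11 did not pass once any 1 of 4 arrays was left out, namely a chow array or high-fat replicate 3 (range -0.39 to -0.23). Cd40 rose by 0.78 ± 0.12 and the death-domain receptor Tnfrsf21 by 0.88 ± 0.11. Interleukins and receptors outside the IL-1 family had 16 risen and 10 fallen of 54 (median -0.02). Il7r, the receptor for IL-7 and, with Crlf2, for TSLP, read 7.04, 6.30 and 7.08 on chow and 11.33, 10.66 and 11.10 on the high-fat diet and rose by 4.22 ± 0.27 (18.7-fold), and Crlf2 rose by 1.22 ± 0.11. The receptor chains Csf2ra, Csf2rb2 and Il3ra rose by 1.56 ± 0.14, 1.65 ± 0.14 and 1.04 ± 0.09. Il10, an anti-inflammatory cytokine, rose by 1.24 ± 0.17 from a chow mean of 3.73, and its receptor Il10ra by 1.74 ± 0.15. Il6 read 2.62 to 3.04 over the 6 arrays and did not pass (0.03 ± 0.10), nor did its receptor Il6ra (0.05 ± 0.12). The receptors Il15ra (-0.97 ± 0.10), Il17rc (-0.82 ± 0.12) and Il17rb (-0.73 ± 0.14) fell. Without chow replicate 3 or high-fat replicate 3, 3 TNF family genes fell, and with wild-type arrays alone 2. With the liver markers as a covariate 1 TNF family gene and 4 interleukin genes fell.

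Lectins, Fc receptors and paired receptors had 35 risen and 6 fallen genes of 59 (median 0.78). Fcgr4 and Fcgr1, activating receptors for antibody, rose by 2.97 ± 0.19 and 2.39 ± 0.19. The CD300 receptors, whose genes are close relatives, rose by 2.93 ± 0.18 (Cd300lb), 2.72 ± 0.15 (Cd300a) and 2.42 ± 0.14 (Cd300ld). The beta-glucan receptor Clec7a rose by 2.67 ± 0.22, Clec12a by 2.70 ± 0.18 and the sialic acid binding Siglec1 by 1.81 ± 0.11. Clec4d, a receptor for glycolipids, read 4.44, 4.50 and 4.34 on chow and 8.51, 6.06 and 8.41 on the high-fat diet, so that its rise of 3.24 ± 0.53 was carried by high-fat replicates 1 and 3, with replicate 2 in between. Mrc1, the mannose receptor of resident macrophages, rose by 0.78 ± 0.11. Timd4, which binds dying cells, read 6.78, 7.04 and 7.55 on chow and 5.80, 5.83 and 5.28 on the high-fat diet and fell by 1.49 ± 0.20, and Cd163, the haemoglobin scavenger, read 8.56, 8.43 and 8.85 on chow and 7.86, 7.92 and 7.36 on the high-fat diet and fell by 0.90 ± 0.18. Trem1 stood at -0.05 ± 0.14 (adjusted p 0.833). Without chow replicate 1 or high-fat replicate 2, and with wild-type arrays alone, 3 genes of the list fell. Adjusted for the liver markers, 2 fell, and Cd163 lost its call.

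Eicosanoid genes had 13 risen and 9 fallen of 34 (median 0.14). Hpgds, the synthase for prostaglandin D2 in blood-derived cells, read 7.14, 6.62 and 7.45 on chow and 10.56, 10.33 and 10.74 on the high-fat diet and rose by 3.47 ± 0.20. Thromboxane synthase (Tbxas1) rose by 1.87 ± 0.19, the phospholipases Pla2g7 and Pla2g15 by 1.63 ± 0.22 and 1.33 ± 0.11, and the leukotriene helper Alox5ap by 1.04 ± 0.20. The cyclooxygenase Ptgs2 fell by 0.55 ± 0.16, a call lost without chow replicate 3 or high-fat replicate 3 (range -0.69 to -0.41), and the prostaglandin E synthase Ptges by 0.98 ± 0.15. Alox15, a lipoxygenase of resident peritoneal macrophages, fell by 1.49 ± 0.20, and the phospholipase Pla2g2d by 1.90 ± 0.35. Leukotriene C4 synthase (Ltc4s) did not pass (0.23 ± 0.14). Under the liver covariate, 7 genes of the list rose and 5 fell, and Alox5ap and Ptgs2 lost their calls, Ptgs2 also with wild-type arrays alone.

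Acute-phase proteins had 4 risen and 6 fallen of 21 (median -0.17). Saa3, the form of serum amyloid A made outside the liver, read 6.14, 6.87 and 7.47 on chow and 9.69, 9.51 and 9.50 on the high-fat diet and rose by 2.74 ± 0.29, while haptoglobin (Hp) stood at 0.04 ± 0.07. Lcn2, which sequesters bacterial iron carriers, read 9.01, 8.61 and 8.54 on chow and 9.39, 9.34 and 10.67 on the high-fat diet and rose by 1.08 ± 0.30. Without high-fat replicate 3 the rise of Lcn2 was 0.64, still past the threshold (adjusted p 0.0398). The fibrinogen chain Fgb, one of the liver markers above, fell by 1.96 ± 0.38, Itih4 by 1.63 ± 0.26 and ceruloplasmin (Cp), a copper oxidase, by 1.42 ± 0.14. In iron and haem handling 9 rose and 11 fell of 33 (median -0.03). The phagosomal metal transporter Slc11a1 rose by 2.25 ± 0.16, the haem exporter Flvcr1 by 1.10 ± 0.10 and biliverdin reductase (Blvra) by 1.01 ± 0.10. Flvcr2, a relative of the exporter, read 6.34, 6.67 and 6.63 on chow and 4.80, 4.67 and 4.73 on the high-fat diet and fell by 1.81 ± 0.12, as did the metalloreductases Steap2 (-1.60 ± 0.15) and Steap4 (-1.10 ± 0.10) and the haem synthesis enzyme Alad (-1.27 ± 0.12). Both red blood cell markers fell too, Alas2, another haem synthesis enzyme, by 1.44 and Slc4a1 by 0.86, and their part in these changes was not tested. The transferrin receptor Tfrc (-0.09 ± 0.12) and the iron exporter Slc40a1 (0.48 ± 0.24) did not pass. After adjustment for liver markers, and with wild-type arrays alone, 3 acute-phase genes fell and Lcn2 lost its call.

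Genes of osteoclasts and giant cells, multinucleate relatives of macrophages, had 18 risen and 1 fallen of 30 (median 0.48). Ctsk, the collagen-cutting cathepsin of osteoclasts, read 8.26, 7.54 and 7.57 on chow and 11.00, 10.49 and 11.26 on the high-fat diet and rose by 3.13 ± 0.23 (8.75-fold). The fusion proteins Dcstamp and Ocstamp rose by 3.22 ± 0.39 and 1.05 ± 0.15, and Dcstamp read 5.82, 4.69 and 4.79 on chow and 8.78, 7.43 and 8.76 on the high-fat diet. Anpep rose by 2.28 ± 0.14, the proton pump subunit Tcirg1 by 2.10 ± 0.15, and the surface proteins Cd44 and Cd9 by 2.11 ± 0.18 and 1.86 ± 0.16. The gene that fell was Acp5, the tartrate-resistant acid phosphatase used to stain osteoclasts, at 11.17, 11.50 and 11.26 on chow and 11.01, 10.98 and 10.91 on the high-fat diet (-0.34 ± 0.09). Without chow replicate 1 or 3 or high-fat replicate 2 the list had 2 fallen genes, and with the liver markers as a covariate 0, where Acp5 lost its call.

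Of 37 transcription factors of immune cells 16 rose and 4 fell (median 0.16). Spi1 (PU.1), which specifies myeloid cells, read 8.75, 8.39 and 8.89 on chow and 11.13, 10.56 and 11.16 on the high-fat diet and rose by 2.27 ± 0.15. Irf8 and Irf5 rose by 1.95 ± 0.12 and 1.64 ± 0.21, Runx1 by 1.62 ± 0.12 and the NF-kappaB member Rel by 1.2 ± 0.09. Tfe3, a regulator of lysosomal genes, rose by 0.66 ± 0.07. Epas1 (HIF-2 alpha) fell by 0.58 ± 0.10 and Cebpe by 0.69 ± 0.14. Immediate early genes, which respond to a stimulus within minutes, had 10 risen and 2 fallen of 26 (median 0.16). Fos read 6.21, 5.62 and 5.95 on chow and 8.44, 8.08 and 8.37 on the high-fat diet and rose by 2.37 ± 0.34, Egr2 rose by 3.05 ± 0.24 and Gadd45b by 1.63 ± 0.10. Their relatives Egr1 (0.02 ± 0.28) and Jun (-0.04 ± 0.08) did not pass. With the liver markers as a covariate 2 immune transcription factors and 0 immediate early genes fell, 6 immediate early genes rose, and Cebpe lost its call. With any 1 of the 5 arrays other than high-fat replicate 2 left out, 0 or 1 immediate early genes fell.

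**Figure D4:**
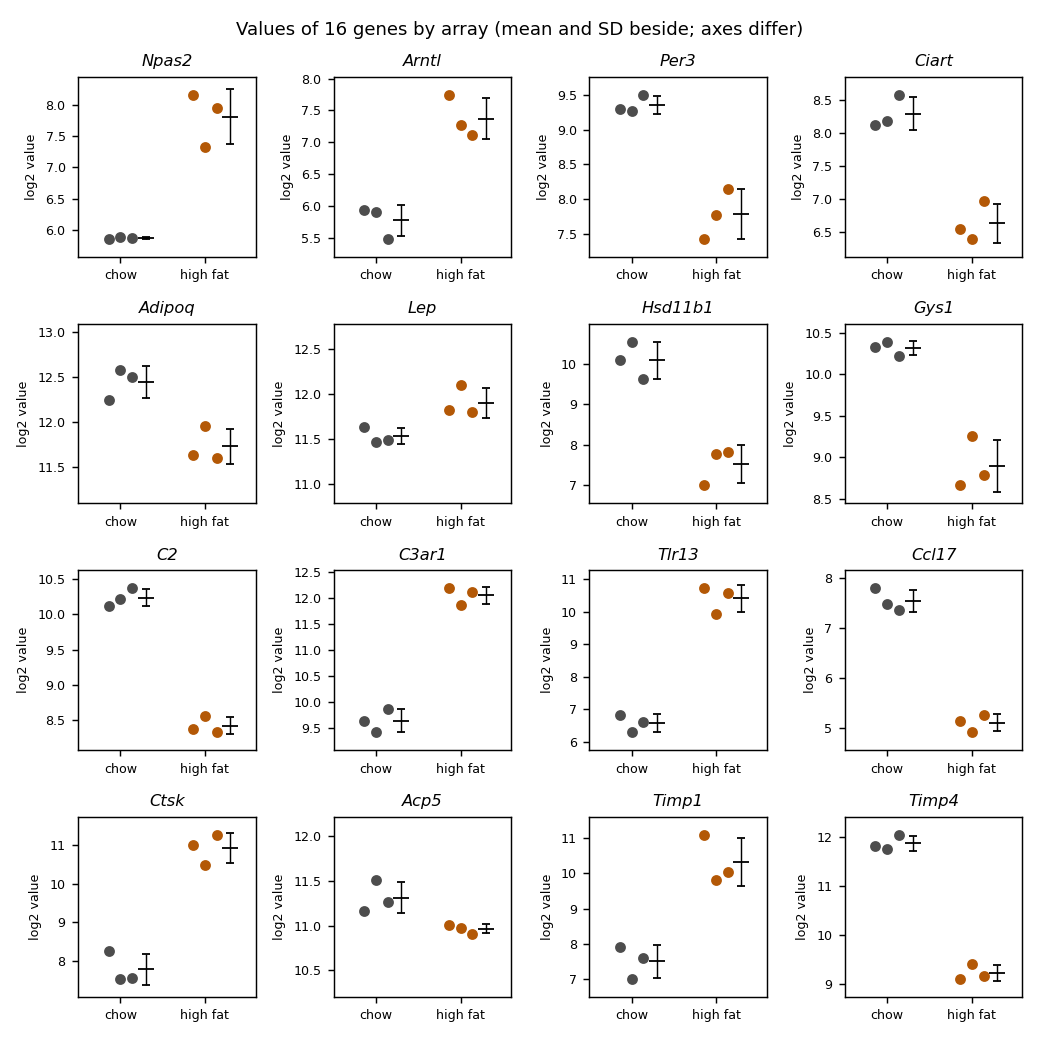
Log2 values of 16 genes on each wild-type array (points, replicates 1 to 3 from left to right) with the mean and SD of each diet beside them; the y axes differ between panels. The diets did not overlap in any of the 16, and related genes moved in opposite directions, as in Npas2 and Per3, C3ar1 and C2, and Timp1 and Timp4. The genes shown were chosen with earlier results known, so their lack of overlap says nothing about genes at large. Of all 18820 genes tested, 3915 lay higher and 4242 lower on the high-fat diet without overlap.

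Lipid handling was followed through cholesterol genes and the lysosome, in whole tissue and not in macrophages alone. Of 29 genes of cholesterol efflux, uptake and storage 14 rose and 8 fell (median 0.35). Nceh1, which frees cholesterol from its esters, read 8.94, 8.29 and 8.55 on chow and 11.29, 10.95 and 11.11 on the high-fat diet and rose by 2.52 ± 0.14. The exporter Abcg1 rose by 1.55 ± 0.13, and the carriers Npc1, Stard3 and Osbpl3 by 0.87 ± 0.09, 1.23 ± 0.11 and 1.60 ± 0.14. The exporter Abca1, controlled by the same receptors as Abcg1, read 10.78, 10.71 and 10.78 on chow and 10.41, 10.75 and 10.88 on the high-fat diet and did not pass (-0.07 ± 0.10). Apoe stood at -0.16 ± 0.06, a call lost without chow replicates 2 or 3 or high-fat replicates 1 or 2 (range -0.23 to -0.12), and Apoc1 fell by 1.26 ± 0.19. The proton pump that acidifies lysosomes had 13 genes risen and 1 fallen of 23 (median 0.30). Its subunit Atp6v0d2 read 7.39, 5.24 and 6.83 on chow and 12.13, 11.79 and 12.07 on the high-fat diet, and the subunits found in most cells rose less, Atp6v1a by 1.42 ± 0.08, Atp6v0a1 by 1.23 ± 0.08, Atp6v1b2 by 1.2 ± 0.08 and Atp6v0b by 0.91 ± 0.07. Atp6v0e2 read 8.90, 9.24 and 9.47 on chow and 7.61, 8.07 and 7.30 on the high-fat diet and fell by 1.54 ± 0.19. The proton pump list had 2 fallen genes without chow replicate 3, and Apoe lost its call with wild-type arrays alone and without the intensity trend.

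Cathepsins and other lysosomal genes had 35 risen and 5 fallen of 51 (median 0.54). The glycosidases Gusb, Galc and Hexa, which cut sugar chains and glycolipids, rose by 1.81 ± 0.11, 1.77 ± 0.09 and 1.35 ± 0.08. Gpnmb, a lysosomal membrane glycoprotein of lipid-laden macrophages, read 8.94, 7.62 and 8.23 on chow and 12.78, 12.60 and 12.76 on the high-fat diet and rose by 4.45 ± 0.36 (21.9-fold). The cathepsins Ctsd and Ctsl rose by 0.76 ± 0.07 and 0.73 ± 0.05. The calcium channel Mcoln2 rose by 2.27 ± 0.21 and the membrane protein Cln3 by 1.35 ± 0.10. Ctso (-0.44 ± 0.07), Ctsf (-0.30 ± 0.07) and the sphingomyelinase Smpd1 (-0.29 ± 0.07) fell. The list had 3 fallen genes without chow replicate 2, with wild-type arrays alone and with the liver markers as a covariate, where Ctsf and Smpd1 lost their calls.

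Many lysosomal genes carry the motif CACGTG, which factors such as TFEB and TFE3 read, close to their start. In the RefSeq promoters (250 bases before to 50 after the start, GRCm38.p6, both strands searched) the motif was in 17 of the 62 genes of the proton pump and lysosomal lists that had a promoter in the table (27.4%), and in 14 of the 41 that rose (34.1%). Over all genes tested 1411 of 14739 held it (9.6%), as did 12.4% of all genes that rose and 7.2% of all promoters listed. As examples, the 100 bases before the start are shown for the membrane protein Lamp1 (chr8:13159061-13159160, plus strand, 4 matches) and the pump subunit Atp6v0b (chr4:117887330-117887429, minus strand, 2 matches), with the motif in capitals. Lamp1 belonged to the lysosomal list and rose by 0.37 ± 0.05 (adjusted p 0.000121). A match is a string of letters and does not show that a factor binds.
Lamp1: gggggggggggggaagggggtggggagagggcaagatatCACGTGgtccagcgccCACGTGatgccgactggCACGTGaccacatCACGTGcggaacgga
Atp6v0b: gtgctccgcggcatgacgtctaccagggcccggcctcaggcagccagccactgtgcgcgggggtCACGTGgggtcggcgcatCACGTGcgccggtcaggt

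Matrix proteases and their inhibitors had 21 risen and 9 fallen of 43 (median 0.22). Mmp12, the elastase of macrophages, read 8.69, 6.38 and 7.64 on chow and 12.30, 11.60 and 12.16 on the high-fat diet and rose by 4.45 ± 0.54. The membrane proteases Adam8, Adam12 and Adam17 rose by 3.92 ± 0.27, 1.79 ± 0.11 and 1.11 ± 0.08. The inhibitors of metalloproteases moved apart. Timp1 read 7.92, 7.01 and 7.59 on chow and 11.08, 9.80 and 10.04 on the high-fat diet and rose by 2.80 ± 0.29, while Timp4 read 11.80, 11.75 and 12.03 on chow and 9.11, 9.41 and 9.18 on the high-fat diet and fell by 2.63 ± 0.16 (adjusted p 1.05e-07), and Timp3 fell by 0.87 ± 0.09. Of 42 collagen chains 15 rose and 4 fell (median 0.06). The fibrillar chains Col1a1 and Col3a1 rose by 1.02 ± 0.12 and 0.85 ± 0.11, Col12a1 by 1.48 ± 0.19, Col8a1 by 1.36 ± 0.25 and Col6a2 by 0.62 ± 0.08, while the basement membrane chains Col4a6 and Col4a3 fell by 0.85 ± 0.12 and 0.41 ± 0.09. Adjusted for the liver markers, 4 protease and inhibitor genes and 1 collagen gene fell, and Col4a3 lost its call. Without chow replicate 1 or high-fat replicate 1, and with wild-type arrays alone, 2 collagen genes fell.

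In the TGF-beta family 6 genes rose and 17 fell of 44 (median -0.18). Gdf3, a ligand of the family, read 4.82, 4.44 and 5.24 on chow and 8.13, 7.85 and 9.22 on the high-fat diet and rose by 3.57 ± 0.31. Acvr1c (ALK7), a receptor for Gdf3 on fat cells, read 10.25, 10.59 and 10.56 on chow and 8.48, 9.38 and 8.45 on the high-fat diet and fell by 1.69 ± 0.21. The receptors Tgfbr1 and Tgfbr3 moved apart, by 1.31 ± 0.10 and -0.77 ± 0.05. Tgfb3 fell by 0.68 ± 0.09, Bmp6 by 1.03 ± 0.18 and the target genes Id1 and Smad9 of BMP signalling by 1.30 ± 0.26 and 1.11 ± 0.25. The activin chains Inhba (0.31 ± 0.21) and Inhbb (-0.01 ± 0.18) did not pass. Wnt genes had 8 risen and 17 fallen of 55 (median -0.13). Apcdd1, an inhibitor at the cell surface, read 10.75, 10.78 and 10.78 on chow and 8.17, 8.83 and 8.33 on the high-fat diet and fell by 2.33 ± 0.17, and Axin2, a widely used target gene of the pathway, fell by 1.35 ± 0.12. Fzd4 fell by 1.12 ± 0.14, the co-receptor Lrp5 by 0.74 ± 0.10, the agonist Rspo1 by 1.11 ± 0.18 and the ligand Wnt2b by 1.80 ± 0.31. Rspo1 and Wnt2b were lowest on high-fat replicate 3 (7.64 and 6.42), the array with the lowest mesothelial markers (7.53), and the part of those cells was not tested. Ccn4 (0.63 ± 0.14) and Fzd7 (0.73 ± 0.09) rose, and Sfrp2 (0.19 ± 0.37) and Wif1 (0.37 ± 0.20) did not pass. Under the liver covariate, 10 TGF-beta and 7 Wnt genes fell and 5 Wnt genes rose, and Id1 lost its call. Without chow replicate 2, 4 Wnt genes rose, and without high-fat replicate 1, 5 did.

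Amino acid transporters had 12 risen and 8 fallen of 35 (median 0.09). The glutamate transporter Slc1a3 read 10.32, 10.78 and 10.72 on chow and 7.88, 8.44 and 7.79 on the high-fat diet and fell by 2.57 ± 0.18, its relative Slc1a1 fell by 1.63 ± 0.25, and Slc43a1, which carries branched-chain amino acids, by 2.18 ± 0.22. Slc38a1 and the taurine transporter Slc6a6 rose by 1.72 ± 0.17 and 1.49 ± 0.14, Slc43a2 by 1.27 ± 0.15 and the heavy chain Slc3a2 by 0.34 ± 0.09. The cystine transporter Slc7a11 read 4.93, 4.31 and 4.43 on chow and 6.37, 4.61 and 6.09 on the high-fat diet, and its rise of 1.13 ± 0.37 did not pass without chow replicates 2 or 3 or high-fat replicates 1 or 3 (range 0.79 to 1.67). Slc7a11 and Slc3a2 lost their calls with the liver markers as a covariate, and Slc7a11 with wild-type arrays alone.

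Every one of the 55 measured cell division genes rose, with changes from 0.38 to 2.94 and a median of 1.56. The proliferation marker Mki67 read 6.79, 6.24 and 6.53 on chow and 8.94, 8.60 and 8.86 on the high-fat diet and rose by 2.28 ± 0.15. Tpx2, which builds the spindle, read 5.76, 5.39 and 5.36 on chow and 7.96, 7.74 and 7.90 on the high-fat diet and rose by 2.37 ± 0.12, the spindle checkpoint protein Mad2l1 rose by 1.80 ± 0.09 and the DNA repair gene Brca1 by 2.16 ± 0.12. Gas2l3, a linker of actin and microtubules outside the list, rose by 3.23 ± 0.16. Cdk1, the kinase that starts mitosis, read 6.50, 6.01 and 6.55 on chow and 8.68, 8.46 and 8.79 on the high-fat diet and rose by 2.29 ± 0.15, its cyclin Ccnb2 rose by 2.31 ± 0.13, and the checkpoint kinase Bub1, with the largest rise of the list, read 4.95, 4.40 and 4.77 on chow and 7.81, 7.50 and 7.64 on the high-fat diet and rose by 2.94 ± 0.17. No chow value reached a high-fat value in any of the 55 genes, which held for 3915 of all 18820 genes tested. The median change of the 55 genes in knockout mice was 1.5.

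Promoters of such genes often hold CCAAT, read by the factor NF-Y, and TTTGAA, the CHR element through which the genes are shut off in resting cells. Of the 48 cell division genes with a promoter in the table, 35 held CCAAT (72.9%, against 41.9% of all genes tested) and 26 held TTTGAA (54.2%, against 17.3%). Both motifs stood in 22 (45.8%, against 8.0%). Of all genes that rose 43.0% held CCAAT and 16.5% TTTGAA. The 100 bases before the start are shown for the mitotic kinase Cdk1 (chr10:69352913-69353012, minus strand), the motor Kif11 (chr19:37376282-37376381, plus strand) and the cyclin Ccnb2 (chr9:70421555-70421654, minus strand), with CCAAT and TTTGAA, or their reverse complements ATTGG and TTCAAA, in capitals. Ccnb2 held 3 copies of CCAAT in these 100 bases, and its 2 copies of TTTGAA lay outside them, within the longer promoter searched.
Cdk1: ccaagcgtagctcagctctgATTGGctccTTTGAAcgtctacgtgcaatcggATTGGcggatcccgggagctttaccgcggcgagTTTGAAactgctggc
Kif11: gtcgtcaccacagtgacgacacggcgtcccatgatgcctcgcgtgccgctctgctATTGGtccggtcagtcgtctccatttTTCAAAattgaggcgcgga
Ccnb2: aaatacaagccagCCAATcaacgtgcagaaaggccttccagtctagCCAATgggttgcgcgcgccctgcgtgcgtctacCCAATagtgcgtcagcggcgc

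The array also held 306 genes of microRNAs, short RNAs that pair with messenger RNAs through the seed, bases 2 to 8. A probe set reads the gene or its precursor, not a mature arm, and the genes named next were chosen after their values were seen. Of the 306, 45 rose (14.7%) and 25 fell (8.2%), both under the shares over all genes. Mir24-1 (chr13:63301208-63301275) and Mir27b (chr13:63300712-63300784), which lie inside the gene Aopep, rose by 2.20 ± 0.25 and 1.83 ± 0.19, and Aopep itself by 0.55. Mir221 (chrX:19146294-19146388) and its neighbour Mir222 (chrX:19146893-19146971), both on the minus strand, rose by 2.11 ± 0.22 and 1.47 ± 0.18, and Mir221 read 4.45, 4.39 and 4.93 on chow and 7.05, 6.24 and 6.81 on the high-fat diet. Mir142, a microRNA gene of blood cells, rose by 1.45 ± 0.17, and Mir342 by 1.47 ± 0.17 together with its host Evl (2.13). Among the falls, Mir26a-1 (-1.51 ± 0.14) lay in Ctdspl, which fell by 1.2, and Mir708 (-1.26 ± 0.23) in Tenm4, which fell by 0.94. Mir30a and Mir30c-2 on chromosome 1 fell by 1.22 ± 0.15 and 1.26 ± 0.17, and Mir145a of smooth muscle by 1.47 ± 0.14, beside the fall of pericyte markers given above. Mature sequences from RefSeq (GRCm38.p6) are given for the genes that share a seed, in capitals, which was GCUACAU for the 3p arms of the genes that rose and GUAAACA for the 5p arms of those that fell, and for the other leading genes.
mmu-miR-221-3p: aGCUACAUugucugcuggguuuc
mmu-miR-222-3p: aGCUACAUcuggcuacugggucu
mmu-miR-24-3p: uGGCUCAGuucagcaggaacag
mmu-miR-27b-3p: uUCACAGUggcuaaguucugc
mmu-miR-30a-5p: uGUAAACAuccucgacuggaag
mmu-miR-30c-5p: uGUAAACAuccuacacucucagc
mmu-miR-26a-5p: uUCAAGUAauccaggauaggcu

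Many of the largest changes lay outside these lists. Gpr50, an orphan relative of the melatonin receptors, read 3.60, 3.25 and 3.21 on chow and 8.21, 10.66 and 9.46 on the high-fat diet. Its rise of 6.09 ± 0.51 was the largest with predicted genes left out. Tm4sf19, a membrane protein of osteoclasts, rose by 5.68 ± 0.37, the stress-induced factor Atf3 by 3.43 ± 0.16 and the lipid-sensing receptor Trem2 by 3.89 ± 0.23. Lipf, the gastric lipase, read 4.42, 5.22 and 4.37 on chow and 8.18, 9.94 and 9.45 on the high-fat diet and rose by 4.53 ± 0.43. Cd72, a receptor best known from B cells, rose by 4.20 ± 0.28, while 0 of 6 B cell markers passed and their mean was lower, as given above. Stap1, an adaptor of blood cells, rose by 3.79 ± 0.20, the sugar phosphate carrier Slc37a2 by 4.02 ± 0.18 and the kinase Cdk18 by 3.70 ± 0.16. Among the falls, Fam13a, a gene tied to fat distribution, read 10.86, 11.29 and 11.28 on chow and 7.56, 7.93 and 7.76 on the high-fat diet and fell by 3.39 ± 0.16, and angiotensinogen (Agt), the precursor of angiotensin, read 11.41, 11.50 and 11.50 on chow and 8.57, 8.45 and 9.12 on the high-fat diet and fell by 2.75 ± 0.13. Mogat1, which makes diglyceride, fell by 2.98 ± 0.23, and the glutathione transferase Gsta4 fell by 2.69 ± 0.17. Adgrg2, an orphan adhesion receptor, read 9.51, 9.77 and 9.74 on chow and 6.87, 6.50 and 7.47 on the high-fat diet and fell by 2.73 ± 0.18. The imprinted zinc finger gene Plagl1 fell by 2.48 ± 0.16, the phosphorylase kinase subunit Phkg1 by 2.40 ± 0.20, the mitochondrial serine carrier Sfxn1 by 1.61 ± 0.08 and thrombomodulin (Thbd), an anticoagulant of vessel walls, by 1.89 ± 0.09. Pon1, a lipoprotein-bound esterase made mainly by the liver, read 7.21, 7.54 and 6.86 on chow and 4.09, 5.55 and 3.61 on the high-fat diet and fell by 2.78 ± 0.42, beside the fall of the liver markers.

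The direction of these changes was checked in the knockout mice, whose arrays are other samples. P2rx7, the gene targeted in the knockout, read 8.32, 7.91 and 8.41 on chow and 9.54, 9.36 and 9.69 on the high-fat diet in wild-type mice, and 7.90 to 8.23 on chow and 8.90 to 9.14 on the high-fat diet in knockout mice. Its probe set did not separate the genotypes on chow and so is no check of the knockout label. Of the 3327 genes that rose in wild-type mice 3198 (96.1%) had the same sign there, and of the 3409 that fell 3344 (98.1%), while over all genes the signs matched in 78.3%. The call was the same for 2315 of the risen (69.6%) and 2545 of the fallen genes (74.7%), and the opposite for 4 and 1. The share of all genes called in knockout mice was not computed, so these shares of calls have no background to be judged against. The median change of the risen genes was 0.58 in wild-type and 0.42 in knockout mice, but the genes were chosen by their wild-type values, so the medians are not compared. In limma's test of the difference itself 0 genes passed, and 1829 (9.7%) had an unadjusted p under 0.05. Predicted genes aside, the smallest adjusted p in this test was that of Aox3, an aldehyde oxidase. In wild-type mice it read 7.32, 6.88 and 7.21 on chow and 5.36, 5.87 and 5.65 on the high-fat diet. It fell by 1.51 ± 0.13, against -0.18 in knockout mice (limma adjusted p of the difference 0.0783). Next came the oxysterol hydroxylase Cyp39a1, at -0.47 ± 0.07 against 0.24 (0.0836). Further down were the calpain-like Capn6 (-1.22 ± 0.14 against -0.12), the secreted kinase Fam20c (0.85 ± 0.12 against -0.09), Adamtsl1 (-0.99 ± 0.10 against -0.09), the synaptic protein Amph (-1.61 ± 0.15 against -0.40), the heat shock protein Hsph1 (1.64 ± 0.18 against 0.22) and the repressor Bcl6 (1.04 ± 0.15 against -0.06). The largest wild-type changes among clock genes were smaller in knockout mice, with Npas2 at 1.00, Arntl at 0.74, Per3 at -0.78 and Ciart at -0.50. Their differences between genotypes did not pass (adjusted p 0.32, 0.32, 0.32 and 0.298), and their choice by wild-type values again bars a comparison of size. Other clock genes were closer, as Cry2 (-1.03 against -0.87) and Nfil3 (0.44 against 0.34).

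**Figure D5:**
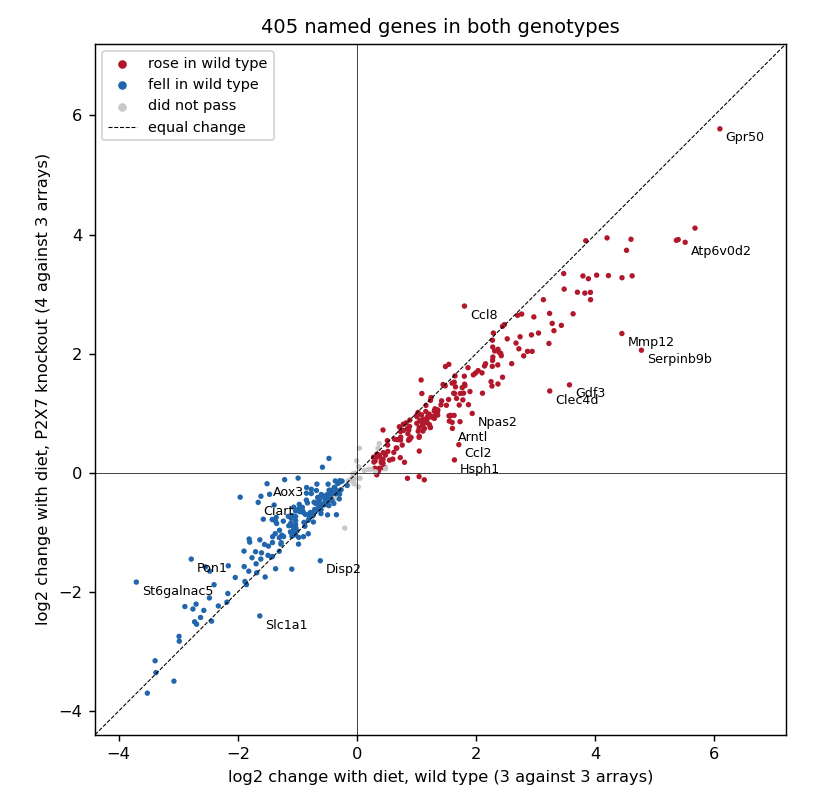
Change with the high-fat diet of 405 named genes in wild-type mice (x axis, 3 against 3 arrays) and in P2X7 knockout mice (y axis, 4 against 3 arrays), both log2; colours give the call in wild-type mice and the dashed line marks equal change. Genes away from the line included Hsph1 (1.64 ± 0.18 and 0.22), Aox3 (-1.51 ± 0.13 and -0.18), Ccl2 (1.71 ± 0.21 and 0.47) and Ciart (-1.66 ± 0.19 and -0.50). No gene passed the test of a difference. Most of the genes were picked by their wild-type values, so a smaller change in knockout mice is not read as a result.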

How the data were processed

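Total RNA of epididymal fat was hybridised to 13 Affymetrix gene arrays, 1 per sample, and the 6 wild-type arrays were compared by diet. The deposited table held log2 expression values that the authors had made with RMA, per the submitters' processing notes (version not given in the sources used here). RMA corrects background, quantile-normalizes the arrays and summarises probes, so that a change shared by most genes is removed and small changes of dim or very bright genes are compressed. No further normalization was applied. The number of arrays limits the precision.

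In the platform annotation, of 35556 probe sets 21218 named 1 gene, 1881 several and 12457 none. Each of 18820 genes was read by its brightest probe set (1386 genes had several to choose from), and 18790 genes matched RefSeq by Entrez identifier. Probe sets naming several genes were left out of every count of genes.

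The test was that of limma 3.58.1, run in R 4.3.3 (a mean per group, eBayes with an intensity trend, Benjamini-Hochberg adjustment over all genes), on all 13 arrays with wild-type high-fat minus wild-type chow as the contrast, and the diet effect was tested for a difference between genotypes as an interaction. Marker levels were compared by exact two-sided permutation. The test was checked on data with known answers. The 37 gene lists had 1447 entries, of which 1341 were measured (17 through a synonym). Members, lists and the rule for named genes were chosen with earlier results of these data known. The rule took fixed members of each list and the members that passed with the smallest p or the largest change. Over all genes it took the 20 largest rises and falls without overlap and 15 genes of high level changed 2-fold. It also took the 15 smallest p and the 10 smallest interaction p. Left out of these rankings over all genes were predicted genes (also clone names), olfactory and vomeronasal receptors, and microRNA and small nucleolar RNA genes. The text describes a subset of the named genes. Promoters and microRNAs came from RefSeq (GRCm38.p6). Values were handled with Python 3.11.15, pandas 2.3.3, numpy 2.4.6 and R data.table (1.17.8), and figures with matplotlib 3.10.9.

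Alternatives changed the variance model, the scaling, a filter on the dimmest 30% of genes, the probe set rule, array weights, the arrays in the model, a minimum fold change, a liver covariate, the replicate block and each array in turn. Deviations from the diet mean of same-numbered chow and high-fat arrays correlated at r of 0.012, 0.222 and -0.042. Arrays of different number were not compared in this way, so these values cannot decide whether the numbers pair the arrays.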

Additional observations from a re-analysis of the deposited data

Results flagged for a closer look

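Probe sets that name several genes were outside the counts of genes. Of 1881 such probe sets 280 rose and 204 fell with the high-fat diet in wild-type mice by limma. They had a fit of their own, with p adjusted over these probe sets only. Both shares were under those over all genes (17.7% risen and 18.1% fallen). The largest rise was that of a probe set shared by Glipr1 and Krr1 (6.44, 6.00 and 6.67 on chow and 10.49, 9.80 and 10.61 on the high-fat diet, a change of 3.93 ± 0.24). Probe sets shared by the signal-regulatory genes Sirpb1a, Sirpb1b and Sirpb1c rose by 3.27 ± 0.20, 2.86 ± 0.16 and 2.56 ± 0.14, and which of the close copies they read is not known. The largest fall was that of a probe set shared by Eri2 and Acsm3 (8.28, 8.98 and 8.73 on chow and 4.79, 4.78 and 4.44 on the high-fat diet, a change of -3.99 ± 0.32).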

How the results depend on the processing

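Requiring a change of at least 1.5-fold as well left 1648 genes that rose and 1379 that fell, and limma's test against a minimum of 1.2-fold left 1663 and 1332. With the liver markers as a covariate, a level that itself differed between the diets, 2098 rose and 1782 fell. The cause was not tested. Leaving out 1 array at a time gave 2871 to 3374 risen and 2807 to 3665 fallen genes. Arrays centred on their medians, which moved the median change of all genes from -0.027 to -0.08, gave 2874 risen and 4352 fallen genes, so that 39.8% of calls were rises against 49.4%, and a second quantile normalization gave 3135 and 3850. By the labels, arrays of equal number share only that number. With the replicate block 2588 genes rose and 2551 fell. Of 382 named genes with a call, 381 kept it on median-centred arrays, 361 with wild-type arrays alone, 365 with the replicate block, 335 with the liver covariate, 315 against the 1.2-fold minimum and 366 to 374 without 1 array, and none of the 382 changed direction under these alternatives. Some marker levels depended on whether a mean or a median over the markers was taken. Mean levels on chow and the high-fat diet were 6.34 and 6.42 for dendritic cells and 5.07 and 5.09 for natural killer cells. In both, arrays of the diets overlapped. Mean levels were 4.94 and 4.87 for neutrophils and 9.78 and 9.33 for endothelium, without overlap. For skeletal muscle they were 5.18 and 5.02, with overlap. By medians, the change was 0.53 for dendritic cells, -0.223 for natural killer cells, -0.766 for endothelium and -0.021 for skeletal muscle. For neutrophils it was -0.036, or -0.123 as a mean on median-centred arrays. With 3 arrays a diet, permutation cannot give a p under 0.1, and signals near the array's floor, such as Il6, carry little information on change. The part of the diets' other ingredients and of the hour of sampling was not tested.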
